A study of Mus musculus with 12 samples.

Results

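The NF-kB subunits and their feedback genes were followed in HT22 cells, an immortalized mouse hippocampal neuronal line, after loss of NCOA4 and restriction of iron. The set holds 10 of the 24343 uniquely named genes in the deposited tables: the subunit genes Nfkb1, Nfkb2, Rel, Rela and Relb, and the regulators Nfkbia, Nfkbie, Tnfaip3, Bcl3 and Traf5. They were taken by name, for their roles in the pathway, with earlier results of these data known. The 12 RNA-seq libraries fall into 4 groups, with 3 biological replicates per group. In siControl the cells received a control siRNA at normal iron, and in siNCOA4 an siRNA against Ncoa4 at normal iron. In siControl+DFO and siNCOA4+DFO the same siRNAs were combined with desferrioxamine (DFO), an iron chelator, at 100 µM for 24 h. All groups, the control included, thus carried a transfected siRNA delivered in liposomes, the depletion was transient, and 1 cell line was used. The paper's question was what NCOA4, the receptor that takes ferritin to the lysosome to release its iron, does for neurons short of iron. The values are FPKM, fragment counts scaled to transcript length and library size, so levels can be set side by side between genes.

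NF-kB proteins are dimers of Rel-family subunits. In resting cells, inhibitors of the IkB family hold the dimers in the cytoplasm. Receptors for cytokines and microbial products act through TRAF adaptors and the IKK kinases to remove these inhibitors, after which the dimers enter the nucleus. Among the genes they switch on are those of their own inhibitors, so that mRNA of Nfkbia and Tnfaip3 is widely read as a sign of recent NF-kB activity. In neurons and glia the pathway is known for its part in survival, inflammation and synaptic function. The deposited values are mRNA levels, and neither the location nor the DNA binding of any subunit was measured in them.

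The promoter sequences are shown because NF-kB feedback rests on binding sites in the genes' own promoters. In the RefSeq annotation of GRCm38.p6, 8 of the 10 genes had a promoter window of 300 bases, from 250 before to 50 after the start of transcription. Nfkb1 and Relb had no entry. A single form of the NF-kB site was searched on both strands after these windows had been seen. It has 10 letters that read GGG, NN, TT, N and CC in a row, with N for any base. Other forms of the site were not searched, so a window without a match may still hold a site. The searched form was found for 5 of the 8 genes (62.5%), and in 5.48% of 27025 genes with a window. Rela, Nfkbie and Traf5 held no match in their windows. Capitals mark the match in the 250 bases before the start of Nfkbia, at chr12:55492648-55492897 on the minus strand, and in 30-base stretches of Nfkb2 (chr19:46304688-46304717, plus strand), Rel (chr11:23771042-23771071, minus strand), Tnfaip3 (chr10:19015403-19015432, minus strand) and Bcl3 (chr7:19822734-19822763, minus strand), each written along the strand of its gene.
Nfkbia: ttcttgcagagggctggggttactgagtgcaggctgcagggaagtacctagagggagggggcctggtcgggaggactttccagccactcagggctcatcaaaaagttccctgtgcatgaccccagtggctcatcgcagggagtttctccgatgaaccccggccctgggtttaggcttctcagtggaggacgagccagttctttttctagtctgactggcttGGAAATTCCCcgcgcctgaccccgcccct
Nfkb2: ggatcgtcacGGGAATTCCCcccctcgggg
Rel: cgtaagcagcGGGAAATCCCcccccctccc
Tnfaip3: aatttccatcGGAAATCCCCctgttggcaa
Bcl3: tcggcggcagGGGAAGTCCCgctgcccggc
The matches in Nfkbia, Rel, Tnfaip3 and Bcl3 read on the strand opposite to the gene, and the Nfkb2 match is the same on both strands. The Nfkb2 and Rel windows held further matches, in part overlapping. Counted from the start of transcription, the matches shown begin at -29 in Nfkbia, -39 in Nfkb2, -92 in Rel, -12 in Tnfaip3 and 2 in Bcl3. A match is a description of these letters. No binding was measured.

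Ncoa4, the targeted gene, was checked first. It lay at 6.46, 6.19 and 6.02 FPKM in siControl and at 0.770, 0.952 and 0.891 FPKM in siNCOA4, and fell by 2.71 on the log2 scale (adjusted p = 1.25e-05). With DFO it was at 8.70, 8.31 and 7.52 FPKM with the control siRNA and at 0.850, 1.29 and 1.57 FPKM with the Ncoa4 siRNA. Tfrc, the transferrin receptor, whose mRNA is stabilized when iron is short, rose with DFO from 70.3 ± 2.02 to 328 ± 17.2 FPKM (SD, n = 3; adjusted p = 3.08e-09). The relative depth of the libraries, read from their lowest values, spanned 1.52-fold, and siNCOA4+DFO replicate 3 was the shallowest. That library also had the highest Ncoa4 of its group, 1.57 FPKM, and held the lowest value of the group for 9 of the 10 genes. Where calls changed without it, the values without it are given. Of 10 neuronal markers 3 passed the filter on low values, Tubb3, Syn1 and Eno2, and Map2, Snap25 and Gap43 were at 0 in 11 of the 12 libraries, so the labelled neuronal type was supported by few of its defining genes. The summed neuronal markers were at 17.24 to 19.31 FPKM in siControl, 13.35 to 15.82 in siNCOA4, 38.27 to 41.55 in siControl+DFO and 26.55 to 32.9 in siNCOA4+DFO. Of the 3 that passed, Eno2, at 2.971 to 24.03 FPKM over all libraries, was called higher with DFO in control cells. Tubb3 and Syn1 were not called higher. Immune markers were scarce: of 9 microglia and macrophage markers 1 passed (Cd68), with sums of 1.07 to 3.889 FPKM over all libraries, and of 6 lymphocyte markers none passed, with Cd3e, Cd4 and Cd8a at 0 in all 12. Of 6 astrocyte markers 2 passed, with Gfap at no more than 0.685 FPKM. Their sums, mostly Slc1a3, were at 36.51 to 46 FPKM in siControl, 22.5 to 27.33 in siNCOA4, 3.312 to 5.476 in siControl+DFO and 6.981 to 15.31 in siNCOA4+DFO. The part of these markers in the results below was not tested.

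In control cells the set was led by the precursor subunits. Nfkb2 had the highest mean, 46.4 ± 4.58 FPKM (SD, n = 3), followed by Nfkb1 with 31.1 ± 1.58 FPKM. Nfkbia and Rela came next, with ranges that overlapped. Relb, Rel, Nfkbie and Traf5 lay between 3.85 and 6.07 FPKM on average, each overlapping its neighbour, and Tnfaip3 and Bcl3 closed the order with 2.22 ± 0.791 and 2.07 ± 0.492 FPKM. With DFO the order changed. Nfkbia stood first in siControl+DFO with 168 ± 27.3 FPKM, above Nfkb2 and Rela, and Tnfaip3, next to last in siControl, overlapped Nfkb1. Traf5 was last, with a range below that of Bcl3. In siNCOA4+DFO, Nfkbia and Nfkb2 overlapped at the top, followed by Rela, Nfkb1 and Tnfaip3 in that order without overlap, and Traf5 and Bcl3 overlapped at the bottom.

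**Figure D1:**
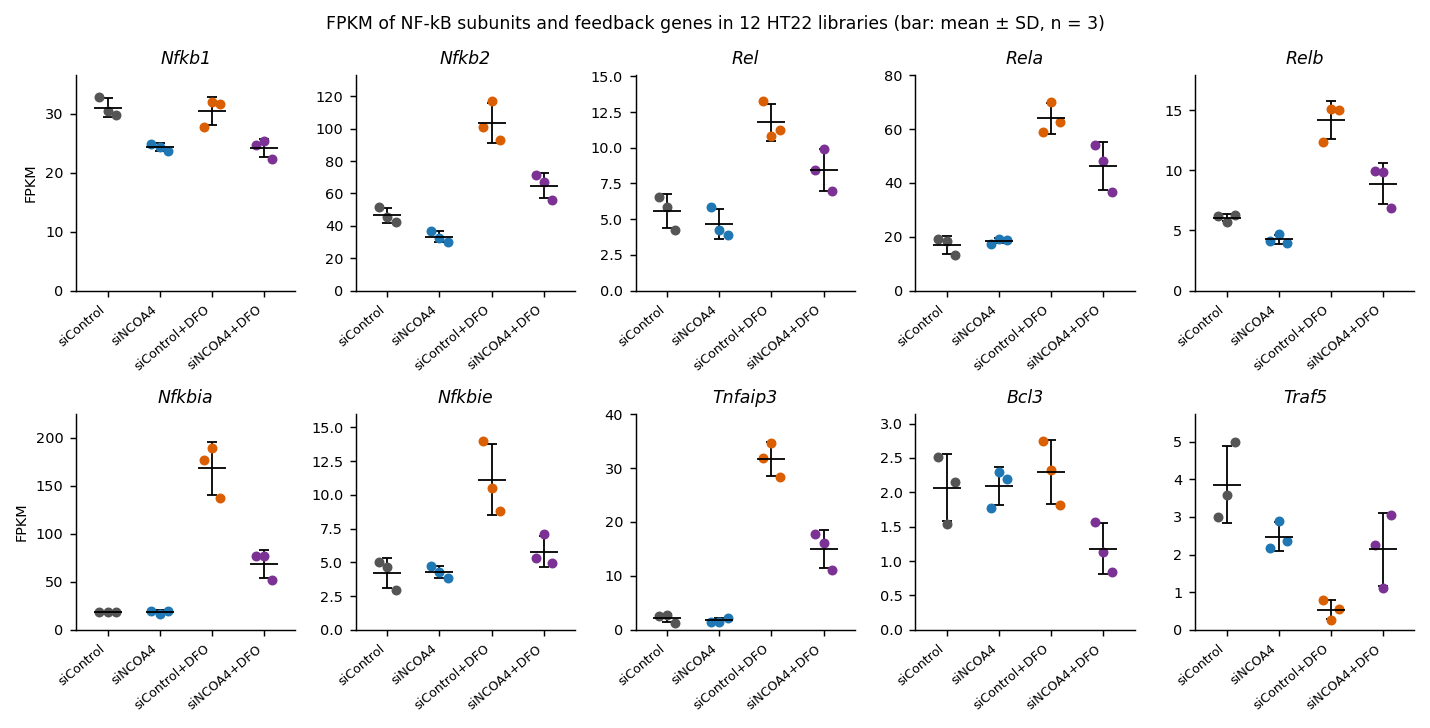
FPKM of the 10 genes (1 panel per gene, y axis from 0) in the 4 groups on the x axis. Points are libraries, and bars with whiskers give the mean and SD of 3 replicates. Nfkbia and Tnfaip3 stand far higher in both DFO groups, and in siNCOA4+DFO all 9 genes other than Traf5 lie below siControl+DFO, with Traf5 above it.

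What iron restriction did in control cells was read from siControl+DFO against siControl. Here 7 of the 10 genes rose, which means a fold above 2 and an adjusted p below 0.05, while 11.1% of the 11924 tested genes did so. One gene, Traf5, fell, against 7.76% of all tested genes. Tnfaip3 and Nfkbia had the largest rises, 4 of the 5 subunit genes rose about 2 to 4-fold, and Nfkb1 and Bcl3 did not pass the test. The median change of the set was 1.18 on the log2 scale, and that of all tested genes was -0.011. Since the set was chosen with earlier results of these data known, such shares and medians describe it, here and below. They are not a test of it. In bulk RNA, a change in the level per cell cannot be told apart from a change in how many cells carry the transcript.

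Nfkbia encodes IkB alpha, the inhibitor that ends NF-kB activity in a short loop. It was at 18.7, 18.9 and 18.5 FPKM in siControl and at 177, 190 and 138 FPKM in siControl+DFO. The lowest DFO library thus lay several times above the highest control. The log2 change was 3.15 with a standard error (SE) of 0.15 (adjusted p = 1.3e-08, limma), and the means had a ratio of 9.01. Tnfaip3 encodes A20, a ubiquitin-editing enzyme that shuts down signalling upstream of IKK. It lay at 2.60, 2.74 and 1.31 FPKM in siControl and at 31.9, 34.6 and 28.4 FPKM in siControl+DFO, the largest rise of the set, by 3.84 on the log2 scale (SE 0.26, adjusted p = 2.21e-07). Nfkbie, which encodes IkB epsilon, was at 5.00, 4.69 and 2.93 FPKM without and 13.99, 10.5 and 8.84 FPKM with DFO. Its groups did not overlap, and it rose by 1.39 (SE 0.23, adjusted p = 0.000258).

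Among the subunits, Rela had the largest change. Rela encodes p65, which carries the activation domain of the most common dimer. Its FPKM were 19.1, 18.6 and 13.1 in siControl and 59.0, 70.1 and 62.7 in siControl+DFO, a rise of 1.93 on the log2 scale (SE 0.16, adjusted p = 9.93e-07). Nfkb2, the precursor p100 that also acts as an inhibitor and is processed to p52, went from 51.4, 45.4 and 42.4 to 101, 117 and 93.0 FPKM. That difference was 1.16 (SE 0.12, adjusted p = 5.75e-06), with no overlap. Relb, the usual partner of p52, was at 6.22, 5.72 and 6.27 FPKM without and 12.3, 15.1 and 15.1 FPKM with DFO, and it rose by 1.20 (SE 0.15, adjusted p = 3.37e-05). Rel encodes c-Rel, best known from lymphocytes. It was at 6.57, 5.87 and 4.2 FPKM in siControl and at 13.3, 10.9 and 11.3 FPKM in siControl+DFO, again without overlap, and it rose by 1.09 (SE 0.20, adjusted p = 0.000625). The rise of Rel was just past 2-fold, and it came to 0.98 with a pseudocount of 1 and to 0.91 without siControl replicate 3.

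Nfkb1, the precursor p105 of p50, did not follow the other subunits. Its values were 32.8, 30.6 and 29.8 FPKM in siControl and 27.8, 32.0 and 31.6 FPKM in siControl+DFO, in overlapping ranges. The log2 change was -0.030 with a 95% interval of -0.21 to 0.15, so a 2-fold change lies outside the interval. Bcl3, an IkB-like protein that binds p50 and p52 dimers in the nucleus, was at 2.51, 1.54 and 2.15 FPKM without and 2.74, 2.33 and 1.81 FPKM with DFO. These ranges overlapped too, and the change was 0.15 with an interval of -0.45 to 0.75. Traf5, an adaptor of TNF receptor family members, was the single gene of the set that fell. It lay at 2.99, 3.58 and 4.98 FPKM in siControl and at 0.785, 0.267 and 0.566 FPKM in siControl+DFO. Every DFO library was below every control library, and the log2 change was -2.69 (SE 0.39, adjusted p = 1e-04). At values this low the size depended on the pseudocount, from -2.91 with 0.01 to -1.65 with 1.

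The effect of the siRNA at normal iron was read from siNCOA4 against siControl. No gene of the set passed the fold of 2 and the adjusted p together, and 1.78% of all tested genes did, in either direction. In limma, 3 of the 10 had an unadjusted p below 0.05, beside 26.2% of all tested genes. Nfkb1 and Nfkb2 were lower with an adjusted p below 0.05, 2 of 10 genes beside 7.21% of all tested genes that were lower by that rule. Nfkb1 lay at 24.9, 24.4 and 23.7 FPKM in siNCOA4, below all 3 control libraries, with a change of -0.35 (SE 0.081, adjusted p = 0.0166). For Nfkb2 the values in siNCOA4 were 36.8, 32.8 and 30.1 FPKM, again without overlap, and the change was -0.48 (SE 0.12, adjusted p = 0.0216). Relb was at 4.15, 4.67 and 3.96 FPKM, below its controls, with a change of -0.50 that missed the threshold (adjusted p = 0.0527). Its adjusted p was 0.045 with a filter of 2 FPKM and with quantile scaling, and 0.0162 without siNCOA4+DFO replicate 3. Without siNCOA4 replicate 3 it rose to 0.15. Leaving out single libraries raised the adjusted p of Nfkb1 to as much as 0.0629 and that of Nfkb2 to 0.0852, and no gene of the set was below that threshold without siControl replicate 1, siNCOA4 replicate 2 or siNCOA4 replicate 3. Nfkbia, at 19.9, 16.9 and 19.5 FPKM, did not differ detectably, and the 95% interval of its change ran from -0.33 to 0.33. Of the others, Rel, Tnfaip3 and Traf5 had negative and Rela, Nfkbie and Bcl3 positive changes, between -0.60 and 0.14 and with adjusted p-values of 0.365 or more.

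DFO in Ncoa4-depleted cells was read from siNCOA4+DFO against siNCOA4. Here 4 genes rose past 2-fold, Rela, Relb, Nfkbia and Tnfaip3, beside 7.59% of all tested genes. By the adjusted p alone 6 were higher, Nfkb2 and Rel in addition, beside 23.1% of all tested genes. Nfkbia was at 76.6, 77.4 and 52.3 FPKM in siNCOA4+DFO, above all of its siNCOA4 values, and rose by 1.85 on the log2 scale (SE 0.15, adjusted p = 2.09e-06). Tnfaip3 lay at 1.52, 1.51 and 2.17 FPKM in siNCOA4 and at 17.9, 16.1 and 11.1 FPKM in siNCOA4+DFO, a rise of 3.04 (adjusted p = 3.3e-06). For these feedback genes the ratios of the means were 3.67 and 8.67. Rela went from 17.4, 19.2 and 18.9 to 54.1, 48.1 and 36.4 FPKM, a rise of 1.30 (adjusted p = 4.28e-05). Relb, at 9.92, 9.84 and 6.89 FPKM with both treatments, rose by 1.03 (adjusted p = 0.00019). That call of Relb is near the fold threshold, at 0.90 with a pseudocount of 1 and at 0.98, 0.94 and 0.94 without siNCOA4 replicate 3 and siNCOA4+DFO replicates 1 and 2. Nfkb2 (71.3, 67.2 and 56.2 FPKM with both treatments) and Rel (5.84, 4.2 and 3.90 FPKM in siNCOA4, 8.45, 9.93 and 6.94 with DFO) were higher by 0.96 and 0.85. Without siNCOA4 replicate 1 both passed 2-fold, and 6 genes were called higher. Without siNCOA4+DFO replicate 3, Nfkb2 passed 2-fold with 1.06, and 5 were called higher.

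In the same comparison the other 4 genes did not rise. Nfkb1 was at 24.7, 25.3 and 22.4 FPKM in siNCOA4+DFO, overlapping siNCOA4, with a change of -0.014 and a 95% interval of -0.19 to 0.16. Nfkbie lay at 4.72, 4.30 and 3.85 FPKM in siNCOA4 and at 5.36, 7.13 and 4.92 FPKM in siNCOA4+DFO. Those ranges did not overlap, yet the change of 0.41 missed the threshold (adjusted p = 0.165). Bcl3 went from 1.78, 2.30 and 2.20 to 1.57, 1.13 and 0.836 FPKM, with a change of -0.81 (adjusted p = 0.0315). The adjusted p of Bcl3 missed the threshold with no filter (0.0551), with the 2 groups fitted alone (0.0594) and without siNCOA4 replicates 2 or 3 or siNCOA4+DFO replicates 2 or 3, up to 0.105. Without siNCOA4+DFO replicate 1 Bcl3 passed 2-fold with -1.02. Traf5 was at 2.16, 2.90 and 2.36 FPKM in siNCOA4 and at 2.25, 1.11 and 3.05 FPKM in siNCOA4+DFO, in overlapping ranges, and its change was -0.30 with an interval of -1.15 to 0.55.

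**Figure D2:**
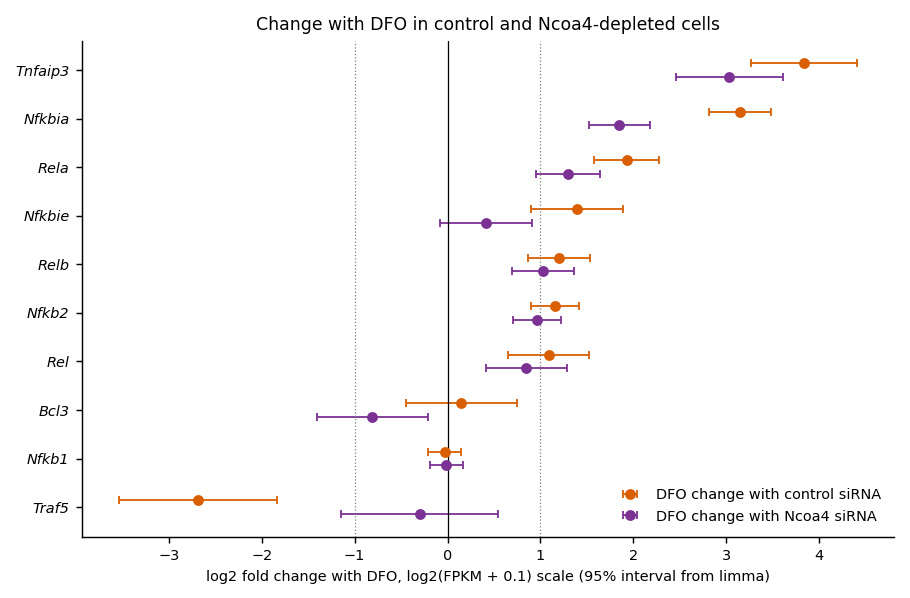
Change with DFO on the log2(FPKM + 0.1) scale (x axis) for each of the 10 genes (y axis), in cells with the control siRNA (orange) and the Ncoa4 siRNA (purple). Points are limma estimates from 3 against 3 libraries with 95% intervals, and dotted lines mark a 2-fold change. The intervals of Nfkbia and Traf5 in the 2 settings do not overlap, with Nfkbia at 3.15 and 1.85 and Traf5 at -2.69 and -0.30.

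Whether the DFO change itself differed between the siRNAs was tested by the interaction. It passed the threshold for 2 of the 10 genes, Nfkbia and Traf5, and for 2.1% of all tested genes. The DFO rise of Nfkbia was smaller by 1.30 on the log2 scale in Ncoa4-depleted cells (SE 0.21, adjusted p = 0.0134), and the adjusted p was at most 0.046 under every other setting and with any library left out. For Traf5 the interaction was 2.39 (SE 0.55, adjusted p = 0.047). The call for Traf5 was lost under 5 of the other settings, with adjusted p-values of 0.0535 to 0.0844, and with 11 of the 12 libraries left out singly. Tnfaip3 (-0.81, adjusted p = 0.281), Nfkbie (-0.98, adjusted p = 0.13) and Rela (-0.63, adjusted p = 0.161) had negative interactions that missed the threshold. Nfkb2, Rel and Relb, for which the DFO changes lay close together, had interactions of -0.19, -0.24 and -0.18. The 95% interval for Relb ran from -0.65 to 0.29, so a moderate difference lies within it. In the set, 5 genes had an unadjusted p below 0.05, beside 18.2% of all tested genes, and the median interaction was -0.43, beside -0.0062 over all tested genes.

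With iron restricted in both groups, siNCOA4+DFO was compared with siControl+DFO, the same libraries as above in another pairing. The ranges of the 2 groups did not overlap for any of the 10 genes, with 9 lower and Traf5 higher in siNCOA4+DFO. Of all tested genes, 20.1% were lower and 14.7% higher without overlap. Nfkbia and Tnfaip3 were called lower, 2 of 10 genes beside 1.01% of all tested genes. Traf5 was called higher, beside 1.07%. Nfkbia was at 0.409 of its siControl+DFO mean, with a change of -1.30 (SE 0.15, adjusted p = 0.000361). Tnfaip3 was at 0.475 of that mean and changed by -1.09 (SE 0.26, adjusted p = 0.0156). Traf5 rose by 1.79 (SE 0.39, adjusted p = 0.00919), by less than 2-fold (0.99) with a pseudocount of 1, and its adjusted p was 0.0595 when the 2 groups were fitted alone.

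By the adjusted p alone, 7 genes were lower in siNCOA4+DFO than in siControl+DFO, beside 10.2% of all tested genes. Apart from the 2 called, these were Nfkb1 (-0.33, adjusted p = 0.0159), Nfkb2 (-0.68, adjusted p = 0.00312), Relb (-0.68, adjusted p = 0.0106), Nfkbie (-0.92, adjusted p = 0.0178) and Bcl3 (-0.93, adjusted p = 0.0393). Rel (-0.49, adjusted p = 0.115) and Rela (-0.48, adjusted p = 0.0571) missed the threshold. The median change of the set was -0.68, beside -0.0062 over all tested genes. This count leaned on single libraries. Bcl3 missed the threshold in 7 of the 12 fits that left out a library, with an adjusted p of up to 0.126, and Nfkb1 in 3 of them, up to 0.0656. Without siNCOA4+DFO replicate 3 it was 3 (Nfkb2, Relb and Nfkbia), without siControl+DFO replicate 2 it was 4, and in all of these fits 9 of the 10 changes remained negative. Tnfaip3 lost its call in both fits, with adjusted p-values of 0.0636 and 0.0582. Without siNCOA4+DFO replicate 3, Nfkbia still fell, by 1.11 (adjusted p = 0.000468). The part of depth and of the higher Ncoa4 in that library was not tested. Tfrc was also lower in siNCOA4+DFO, at 240 ± 20.9 FPKM, with a change of -0.45 (adjusted p = 0.00495). The interaction of Tfrc missed the threshold (-0.48, adjusted p = 0.0649). Vegfa, another check of the DFO treatment, rose with DFO by 2.11 in control cells and by 2.16 in Ncoa4-depleted cells. Its interaction was 0.050 (adjusted p = 0.881, limma). In Ncoa4-depleted cells Tfrc still rose with DFO, by 1.74 (adjusted p = 5.43e-08, limma). By qPCR the paper found no Tfrc response to DFO in such cells, and by RNA-seq a weaker one. The paper ties this to the iron regulatory protein IRP2, which did not respond to DFO in NCOA4-deficient cells. It reports that IRP2 had accumulated there without DFO. It also reports that viability was compromised by DFO and NCOA4 loss together, and by neither alone. The part of viability in these comparisons was not tested.

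Against siControl, which the comparisons of the single treatments share, siNCOA4+DFO had 3 genes called higher, Rela, Nfkbia and Tnfaip3, beside 9.24% of all tested genes. By the adjusted p alone 6 genes were higher, Nfkb2, Rel and Relb in addition, beside 25.4%, and 2 genes were lower, Nfkb1 and Bcl3, beside 23.4%. The adjusted p of Rel rose to as much as 0.109 (without siControl replicate 3) and that of Relb to 0.0553 with single libraries left out. For 7 genes, all but Nfkb1, Bcl3 and Traf5, the mean of the combined group lay above siControl and below siControl+DFO. Nfkbia was higher than siControl by 3.15 with DFO and by 1.85 with both treatments, and Tnfaip3 by 3.84 and 2.75. Nfkb2 was higher by 1.16 and 0.48, and Relb by 1.20 and 0.52. Nfkb1 differed from siControl by -0.35 in siNCOA4 and by -0.36 in the combined group (adjusted p = 0.00268). Bcl3 had a change of -0.78 in the combined group (adjusted p = 0.0333), although its range overlapped that of siControl. That p missed the threshold with no filter (0.0579), with the 2 groups fitted alone (0.0843) and without siControl replicates 1 or 3 or siNCOA4+DFO replicates 2 or 3, up to 0.114. Without siNCOA4+DFO replicate 3, Traf5 was called lower than siControl, with -1.20 (adjusted p = 0.0308).

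The rest of the pathway was described with lists of genes by role. These lists too were chosen with earlier results of these data known, so the shares beside them are descriptive. Ligand transcripts were scarce. Of 10 genes for ligands of receptors that activate NF-kB, 1 (Tnfsf12, the ligand of Tnfrsf12a) passed the filter, and it was lower with DFO in control cells (-0.81, adjusted p = 0.00103). Tnf, Tnfsf14 and Cd40lg were listed at 0 in all 12 libraries. Il1b was at 0 in 11 and reached 0.261 FPKM in the other. Of 19 receptors and adaptors, 17 were tested and 2 rose with DFO in control cells, a share near the 11.1% of all tested genes. Tnfrsf12a, the TWEAK receptor, rose from 42.1 ± 5.81 to 194 ± 13.7 FPKM (log2 2.21, adjusted p = 6.73e-07), and Tlr4, the receptor for lipopolysaccharide, from 19.1 ± 0.528 to 47.7 ± 2.86 FPKM (log2 1.31, adjusted p = 5.07e-07). One fell, the kinase Irak4 of the interleukin-1 and Toll-like receptor pathway, from 6.76 ± 0.398 to 3.22 ± 0.943 FPKM (adjusted p = 0.000295). Of all tested genes, 7.76% fell. The median change of the 17 was -0.17. Both receptors also rose with DFO in Ncoa4-depleted cells. Tnfrsf12a was lower in siNCOA4+DFO than in siControl+DFO (-0.71, adjusted p = 0.0169). No gene of the list passed the interaction, and 3 of the 17 had an unadjusted p below 0.05, beside 18.2% of all tested genes.

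All 6 other TRAF genes were tested, and with DFO in control cells 2 rose and none fell past 2-fold, unlike Traf5. Of all tested genes, 11.1% rose and 7.76% fell. Traf1, itself a known NF-kB target, was at 0.175 ± 0.0719 FPKM in siControl and 1.44 ± 0.513 FPKM in siControl+DFO, and it passed the filter through the DFO libraries alone, so its call follows from its rise. Traf4 rose from 13.4 ± 1.36 to 28.5 ± 1.48 FPKM (log2 1.09, adjusted p = 9.35e-06). Of 14 genes of the IKK complex and upstream kinases, 3 rose with DFO, beside 11.1% of all tested genes. None fell past 2-fold, beside 7.76%, and the median of the 14 was 0.44. Chuk, which encodes IKK alpha, went from 19.3 ± 0.281 to 62.6 ± 3.61 FPKM (log2 1.69, adjusted p = 5.42e-09). Map3k14, which encodes NIK, the kinase upstream of p100 processing, rose by 1.13 (adjusted p = 5.09e-05), and Map3k8 by 1.61 (adjusted p = 0.000203). In siNCOA4+DFO, Map3k14 was below siControl+DFO by a change of -0.64 (adjusted p = 0.0145). Chuk passed the interaction with -0.49 (adjusted p = 0.0339). At normal iron Chuk was higher in siNCOA4 than in siControl by 0.34 (adjusted p = 0.0098). Its change between the DFO groups was -0.15 (adjusted p = 0.185).

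Of 16 other inhibitors and negative regulators, 13 were tested, with a median change of 0.69 with DFO. Of these 3 rose (Nfkbib, Nfkbiz and Rnf11), beside 11.1% of all tested genes, and 1 fell (Pdlim2), beside 7.76%. Nfkbiz, a nuclear IkB, rose from 6.42 ± 0.148 to 22.7 ± 0.50 FPKM (log2 1.80, adjusted p = 1.19e-07). In siNCOA4+DFO it was at 12.8 ± 1.26 FPKM, lower than in siControl+DFO by a change of -0.83 (adjusted p = 0.000935). Pdlim2, a ubiquitin ligase for nuclear p65, fell by 1.71 with DFO (adjusted p = 2.48e-05). Rnf11, a partner of A20, rose by 1.29 (adjusted p = 7.76e-08) and passed the interaction with -0.59 (adjusted p = 0.0204). At normal iron Rnf11 was higher in siNCOA4 than in siControl by 0.44 (adjusted p = 0.00392). Its change between the DFO groups was -0.15 (adjusted p = 0.212). Pdlim2 was at 5.97 ± 1.70 and 6.43 ± 1.84 FPKM in the control and Ncoa4-depleted DFO groups.

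Of 24 targets of NF-kB outside the set, 19 passed the filter. The other 5 (Cxcl2, Ccl20, Icam1, Cd83 and Mmp9) stayed at or below 0.804 FPKM in all libraries. Another 4 (Ccl4, Il6, Csf2 and Lcn2) passed through the DFO libraries alone, so their rise is part of why they were tested. Of the 15 that would have passed without the DFO libraries, 10 were called higher with DFO in control cells, beside 11.1% of all tested genes. They were chemokines (Cxcl1, Cxcl10, Ccl2, Ccl5), the growth factor Csf1, Ptgs2, which encodes cyclooxygenase 2, and Cflar, Gadd45b, Ier3 and Irf1. Cxcl10 rose from 2.94 ± 1.87 to 286 ± 43.0 FPKM (log2 6.76, adjusted p = 3.36e-08). Il6 had means of 0.116 FPKM in siControl, where 2 of 3 libraries were listed at 0, 0.702 in siNCOA4, 9.93 in siControl+DFO and 3.24 in siNCOA4+DFO. Ccl4 was listed at 0 in every siControl and siNCOA4 library and had a mean of 8.61 FPKM in siControl+DFO and 2.25 FPKM in siNCOA4+DFO. In siNCOA4+DFO, 4 targets were called lower than in siControl+DFO (Cxcl1, Ccl4, Ccl5 and Gadd45b), beside 1.01% of all tested genes. Ccl4 is among those that passed through the DFO libraries alone, so the share of all tested genes is not a like measure for it. A negative interaction passed the threshold for Cxcl1, Ccl2, Ccl5, Il6, Gadd45b and Ptgs2, 6 of the 19, beside 2.1% of all tested genes in either direction. Il6 also passed the filter through the DFO libraries alone. The interaction holds the change at normal iron as well. In siNCOA4 against siControl, Ccl2, Il6 and Plau were called higher, 3 of the 19, beside 1.78% of all tested genes in either direction. Il6 rose there by 2.22 (adjusted p = 0.0312), and its change between the DFO groups was -1.71 (adjusted p = 0.0669).

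**Figure D3:**
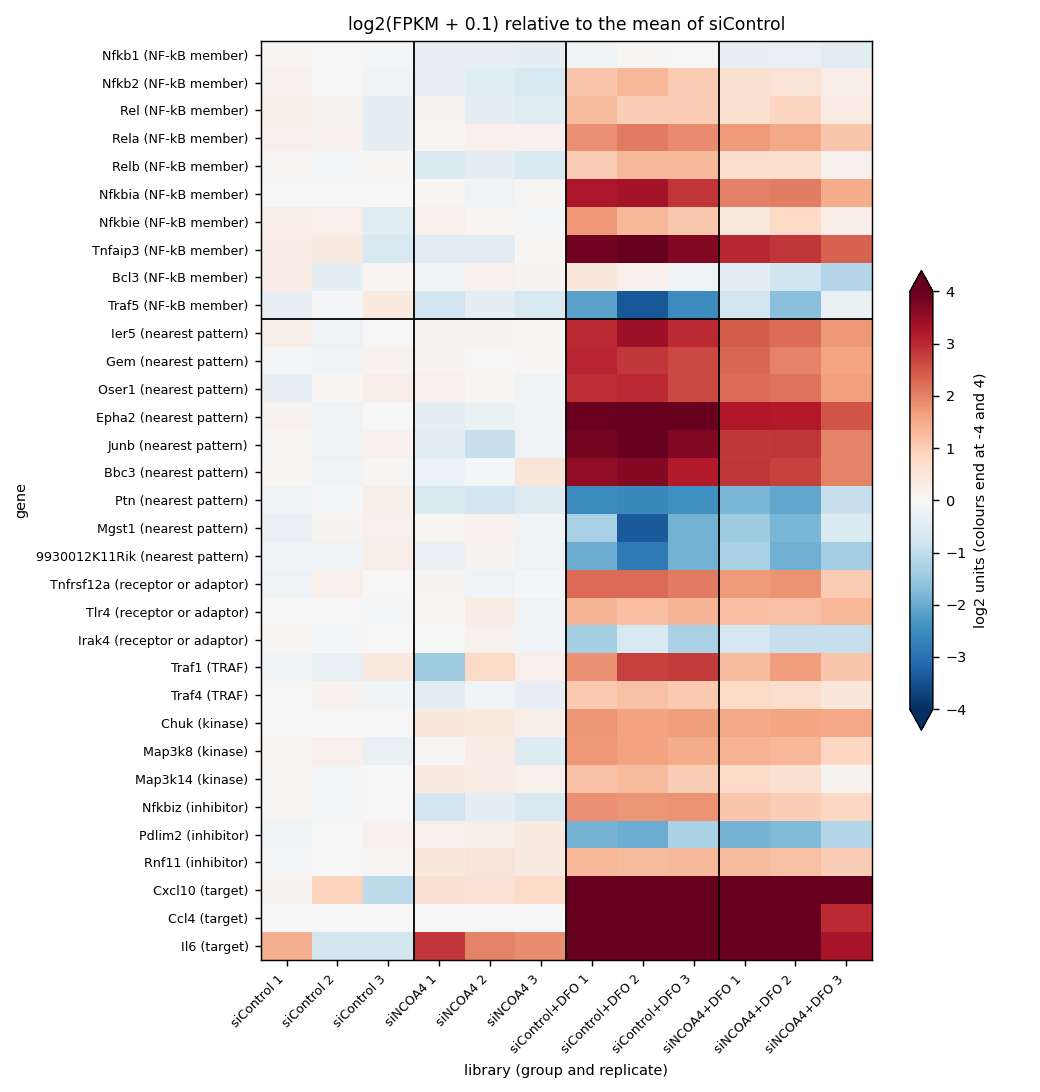
Difference in log2(FPKM + 0.1) from the siControl mean for the 10 genes, the genes nearest to Nfkbia, Tnfaip3 and Traf5 in pattern and named genes of the pathway lists (y axis) in each of the 12 libraries (x axis). Red is higher and blue lower, with colours ending at -4 and 4, and siNCOA4+DFO replicate 3 is paler than its partners for most genes that are red.

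The genes nearest in pattern were found by the root mean square of the differences in log2(FPKM + 0.1) over the 12 libraries. Each gene's mean in siControl was subtracted first. Likeness of pattern says nothing of shared control. Nearest to Nfkbia were Ier5 (0.202), Gem (0.202) and Oser1 (0.230). Ier5, an immediate early gene, had means of 10.7 FPKM in siControl, 11.2 in siNCOA4, 94.0 in siControl+DFO and 47.6 in siNCOA4+DFO. Nearest to Tnfaip3 were Epha2 (0.313), a receptor tyrosine kinase, Junb (0.350), an AP-1 transcription factor, and Bbc3 (0.387), which encodes the pro-apoptotic protein PUMA. Junb went from 9.05 FPKM in siControl to 131 in siControl+DFO and 55.2 in siNCOA4+DFO. Traf5 had no gene as close, by a measure that also holds the spread between replicates. Its nearest were Ptn, a growth factor of neural tissue (0.489), Mgst1, a microsomal glutathione transferase (0.502), and 9930012K11Rik (0.504). Ptn had means of 76.7, 49.8, 13.3 and 26.7 FPKM in siControl, siNCOA4, siControl+DFO and siNCOA4+DFO.

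In the GENCODE vM21 annotation of GRCm38, all 10 genes are protein coding. Nfkbia lies at chr12:55489410-55492647 on the minus strand, Tnfaip3 at chr10:19000910-19015657 on the minus strand and Traf5 at chr1:191997205-192092559 on the minus strand. Exons of 3 of the genes overlap exons of others. Nfkb2 shares 531 bases with AC114539.1 and 299 with Psd on the opposite strand, Bcl3 shares 161 bases with the antisense gene Gm16175, and Traf5 shares 205 with the antisense gene Gm26879 and 65 with Mir3473c on its own strand. The libraries were made with a stranded kit, but whether the counting used the strand is not given in the sources used here, so the values of these 3 genes are uncertain to that extent.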

How the data were processed

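RNA-seq of HT22 cells was profiled in 12 libraries (4 groups, 3 biological replicates each, grouped by the labels). The authors deposited FPKM per gene for each library. Per the labels and methods, total RNA was made into stranded libraries, and the processing notes name Trimmomatic 0.33, FastQC, HISAT2 2.1.0, featureCounts, edgeR and mm10. The annotation and the step to FPKM are not given in the sources used here. FPKM hold no read counts, so depth is known as relative depth alone, and low values are imprecise.

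The tests took genes that reached 0.5 FPKM in 3 or more libraries (11924, all 10 members included). Group means over the 12 libraries were fitted to log2(FPKM + 0.1) with limma 3.58.1 in R 4.3.3, with trend moderation and 8 residual degrees of freedom. Fold changes are on that scale, which understates changes of low values. P-values were adjusted over all tested genes by Benjamini-Hochberg. A gene was called at a fold above 2 and an adjusted p below 0.05, and the interaction at the adjusted p alone. An exact test of 3 against 3 cannot go below 0.1. Pathway genes were named as the called genes with the largest DFO changes of each list, up to 3, and further called genes were named after their values were seen. The members and lists were chosen with earlier results of these data known. The fit was tested on simulated data.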

Additional observations from a re-analysis of the deposited data

Results flagged for a closer look

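The DFO change of 2 genes differed between the siRNAs by the interaction in limma. For Nfkbia the interaction was -1.30 on the log2 scale (adjusted p = 0.0134), with a DFO change of 3.15 in control and 1.85 in Ncoa4-depleted cells. For Traf5 it was 2.39 (adjusted p = 0.047), with -2.69 and -0.30. All 3 siControl+DFO libraries of Traf5 were below 0.8 FPKM, and depth at such values is unknown. Without siNCOA4+DFO replicate 3 the interaction was -1.11 for Nfkbia (adjusted p = 0.00944) and 2.09 for Traf5 (adjusted p = 0.089).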

How the results depend on the processing

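With no fold threshold the genes called were 2 in siNCOA4 against siControl, 8 in siNCOA4+DFO against siControl, 7 against siNCOA4 and 8 against siControl+DFO. The interaction called 1 gene (Nfkbia) instead of 2 with a pseudocount of 0.01, with no filter, with quantile scaling, with no trend and with the replicate block, and 1 to 2 with single libraries left out. Leaving out single libraries gave 0 to 0 genes for siNCOA4, 7 to 8 for DFO in control cells, 3 to 4 and 3 to 6 for siNCOA4+DFO against siControl and siNCOA4, and 2 to 5 against siControl+DFO, the 5 without siControl+DFO replicate 3. Same-numbered replicates did not deviate together (r from -0.13 to 0.12 over 18 pairs of libraries), so no sign of pairing by number was seen. A small shared effect could be missed by this check. The replicate block changed no other count of called genes. Changes of sign were seen for small changes alone. With quantile scaling Bcl3 had -0.062 in siNCOA4 against siControl. With single libraries left out, that comparison ranged from -0.030 to 0.24 for Rela, -0.042 to 0.073 for Nfkbia, -0.17 to 0.20 for Nfkbie and -0.16 to 0.18 for Bcl3. The DFO change in control cells ranged from -0.067 to 0.036 for Nfkb1 and -0.039 to 0.30 for Bcl3, that in Ncoa4-depleted cells from -0.049 to 0.038 for Nfkb1 and -0.60 to 0.091 for Traf5, and the interaction of Nfkb1 from -0.050 to 0.068. The cause was not tested. FPKM limit what can be said of the low genes Bcl3, Traf5 and Tnfaip3 in siControl.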
